A study of Mus musculus with 12 samples.

Results

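The genes described here are 10 members of the bone morphogenetic protein (BMP) pathway: the ligands Bmp2, Bmp4, Bmp5 and Bmp7, the extracellular antagonists Grem1 and Nog, and the response genes Id1, Id2, Id3 and Smad6. They were chosen by symbol. All 10 had a row among the 51826 gene identifiers counted in mouse forelimbs, and all 10 were among the 19987 genes with enough reads to be tested. The study deleted Impdh2, which encodes a rate-limiting enzyme of guanine nucleotide synthesis, and asked what it does in limb development and in osteoclast formation. RNA was sequenced from forelimbs of embryos at embryonic day E12.5, as 2 wild-type libraries (WT 1 and WT 2) and 2 libraries in which Impdh2 was deleted in limb mesenchymal progenitors (Prx-cKO 1 and Prx-cKO 2). A further 8 libraries came from bone marrow cultures, 2 in each of 4 groups: wild type or carrying the deletion in myeloid cells (LysM-cKO), each titled R40D3 or R0D3. Per the labels' protocols, marrow was grown for 3 days at 20 ng/ml M-CSF, then with 40 ng/ml of the osteoclast-forming cytokine RANKL. The titles do not say whether the R0D3 cultures received RANKL. The alleles of the wild-type animals, the number of embryos in a library and their sex are not given in the labels.

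The Prx promoter drives Cre in limb bud mesenchyme, so ectoderm, muscle precursors, vessels and blood in the same forelimb are not its targets. BMP ligands are secreted factors that bind paired serine/threonine kinase receptors, which phosphorylate SMAD proteins that enter the nucleus and switch on genes such as the Id family and Smad6. Gremlin and Noggin bind the ligands outside the cell and keep them from the receptors. In the limb bud, BMP signalling takes part in ridge regression, in the death of interdigital cells and in the start of cartilage formation, and Grem1 holds it down in the distal mesenchyme while the ridge is active.

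The forelimb libraries held between 28892215 and 69466572 counts. Impdh2 measured 260.4 and 272.3 CPM (counts scaled to a common library size) in the WT libraries against 169.7 and 199.4 in those of Prx-cKO, so the targeted gene was lower in both libraries of the deleted group but still counted (log2 fold change -0.53, edgeR adjusted p = 0.443). Tbx5, which marks the forelimb, was at 160.1 and 199.5 CPM in WT and 97.0 and 91.2 CPM in Prx-cKO, while the hindlimb genes Tbx4 and Pitx1 were each at 15.3 CPM or less in all 4 libraries. The spread within each group was larger than counting noise alone would give. The labels do not say whether the replicates came from separate embryos. Counts of Xist and Ddx3y, given below, differed within each group as between female and male embryos. The libraries of a group were therefore not technical repeats of the same RNA. The p-values measure only the spread between these samples, in which embryo sex differs too. The tissue was not sorted, and fewer cells of a type and less RNA per cell cannot be told apart in any value below.

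No member passed the test in the forelimb. With the quasi-likelihood test of edgeR and Benjamini-Hochberg adjustment, 0 of 10 members and 0 of all 19987 genes (0.0%) reached an adjusted p under 0.05. Bmp2 was lower and Bmp7 higher at an unadjusted p under 0.05, as were 10.5% of all genes in either direction (5.87% higher, 4.61% lower), which is the background for the members' count of 2 of 10. That count was 1 without WT 2 and 0 without either Prx-cKO library. The groups did not overlap for 5 of 10 members, of which Bmp7, Grem1 and Smad6 were higher and Bmp2 and Nog lower in Prx-cKO, against 43.2% of all genes (22.2% higher, 21.0% lower), so this share is near the background. DESeq2, run as an alternative, called 393 genes (1.97%, with 1.01% higher and 0.961% lower) and none of the members. The median log2 fold change was 0.11 over the members and -0.03 over all genes tested.

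**Figure D1:**
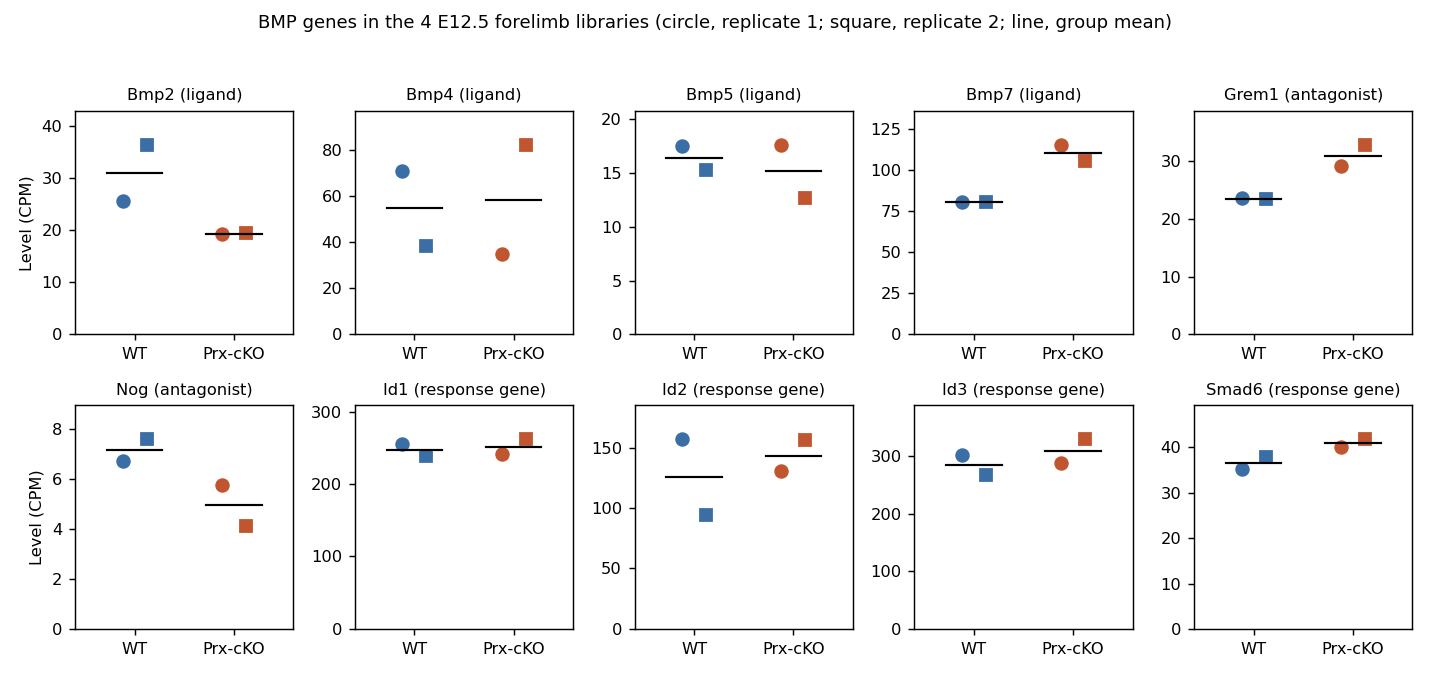
Levels of the 10 members in the 4 forelimb libraries, in CPM on linear axes that start at 0, with each point 1 library (circle, replicate 1; square, replicate 2) and the line the mean of its group. The groups separate for Bmp2, Bmp7, Grem1, Nog and Smad6 and overlap for the other members.

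The stretch before a gene's start holds letters that SMAD proteins are known to bind. RefSeq promoter (GRCm38.p6) entries were matched for 6 of 10 members. Of these, Grem1 and Smad6 are shown because both were higher in Prx-cKO without overlap of the groups, and because 1 is an antagonist and the other a response gene. Each sequence is the 250 bases upstream of the RefSeq start, 5′ to 3′ on the gene's own strand, which is the minus strand for both: Grem1 at chr2:113758649-113758898 and Smad6 at chr9:64022060-64022309. Capitals mark GGCGCC, a GC-rich motif known from BMP-responsive promoters.
Grem1: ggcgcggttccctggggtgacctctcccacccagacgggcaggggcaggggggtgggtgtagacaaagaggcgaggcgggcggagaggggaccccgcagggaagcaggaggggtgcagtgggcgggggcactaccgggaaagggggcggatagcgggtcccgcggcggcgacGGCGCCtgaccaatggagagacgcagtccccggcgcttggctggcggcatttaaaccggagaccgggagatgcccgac
Smad6: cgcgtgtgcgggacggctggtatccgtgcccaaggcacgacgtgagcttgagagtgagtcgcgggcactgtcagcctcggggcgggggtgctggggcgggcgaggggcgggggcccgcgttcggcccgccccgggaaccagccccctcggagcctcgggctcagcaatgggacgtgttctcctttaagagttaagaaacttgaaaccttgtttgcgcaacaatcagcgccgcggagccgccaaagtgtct
GGCGCC, which reads the same on both strands, occurred once in the Grem1 window and was not found in that of Smad6. It was present in 9.59% of the 32851 promoter windows of this length. The shorter SMAD-box letters GTCT, searched on both strands, occurred 4 times in Grem1 and 1 time in Smad6, and 82.9% of all windows held them at least once. A match describes letters and not a bound site.

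Members differed widely in level in WT forelimbs. Per kilobase of exon, the mean was highest for Id1, at 212.5 CPM per kb, followed by Id3 at 158.8 and Id2 at 51.5. These 3 genes encode helix-loop-helix proteins that lack a DNA-binding region and hold back basic helix-loop-helix factors. Bmp4 followed at 24.3, Bmp7 at 20.0, Smad6 at 11.4, Bmp2 at 8.69, Grem1 at 5.67, Nog at 4.21 and Bmp5 at 4.08 CPM per kb. Only 2 neighbouring pairs overlapped in their library values, Bmp4 with Bmp7 and Nog with Bmp5. In Prx-cKO the mean of Bmp7 (27.4 CPM per kb) lay above that of Bmp4 (26.0), and that of Nog (2.91) was the lowest.

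Among the ligands, Bmp2 was lower in Prx-cKO. Bmp2 takes part in interdigital cell death and in bone formation. WT 1 had 25.5 and WT 2 had 36.3 CPM of Bmp2, and the Prx-cKO libraries had 19.3 and 19.4. Both deleted libraries lay below both WT libraries, and the WT libraries differed more between themselves than the deleted ones. The mean was 30.9 ± 7.65 CPM (SD, n = 2) in WT and 19.3 ± 0.0914 CPM (SD, n = 2) in Prx-cKO, or 62.6% of WT. The log2 fold change was -0.68 (SE 0.23, 95% interval -1.26 to -0.09, edgeR unadjusted p = 0.0307, adjusted p = 0.460). Leaving out WT 1 gave -0.95 and leaving out WT 2 gave -0.40, so the size rests on which WT library is kept.

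Bmp7, a ligand of mesenchyme and ridge, was higher. Its level was 80.3 and 80.2 CPM in WT and 115.0 and 105.4 CPM in Prx-cKO. The WT libraries were nearly identical and both deleted libraries lay above them. The mean was 137.3% of WT. Bmp7 had a log2 fold change of 0.46 (SE 0.14, 95% interval 0.10 to 0.82, edgeR unadjusted p = 0.0224, adjusted p = 0.445), and it was 0.39 to 0.52 when each library was left out in turn.

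Bmp4 is needed for ridge formation and for early limb outgrowth, and it varied more within the groups than between them. WT 1 had 71.0 and WT 2 had 38.3 CPM of Bmp4, while Prx-cKO 1 had 34.8 and Prx-cKO 2 had 82.2. One library of each group was high and the other low, and the groups overlapped. The high libraries, WT 1 and Prx-cKO 2, were also those with counts of the X-inactivation transcript Xist (92566 and 139968 counts), while WT 2 and Prx-cKO 1 had 114 and 10. The Y-linked Ddx3y was at 0 in WT 1 and Prx-cKO 2 and at 4579 and 1152 counts in WT 2 and Prx-cKO 1. Whether the sex of the embryos has a part in the Bmp4 spread was not tested. Between the groups Bmp4 differed by a log2 fold change of 0.10 (SE 0.49, 95% interval -1.13 to 1.33, edgeR adjusted p = 0.955), an interval that reaches past 2-fold on both sides, and it ran from -0.65 without Prx-cKO 2 to 0.59 without Prx-cKO 1.

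WT libraries had 17.6 and 15.3 CPM of Bmp5, and Prx-cKO libraries 17.6 and 12.7. The groups overlapped, with Prx-cKO 2 lowest. Its log2 fold change was -0.12 (SE 0.25, 95% interval -0.74 to 0.50, edgeR adjusted p = 0.892). Bmp5 is uncertain, since 1878 of its 4025 exonic bases overlap the antisense gene Gm26903 and it is not stated whether counting used strand. The summed level of the 4 ligands was 63.1 and 51.0 CPM per kb in WT and 53.9 and 71.4 CPM per kb in Prx-cKO, and the groups overlapped. Bmp4 made up 50.1% and 33.4% of that sum in WT and 28.7% and 51.2% in Prx-cKO. Bmp7 made up 31.7% and 39.2% in WT and 53.1% and 36.7% in Prx-cKO. Bmp2 gave 11.4% and 20.0% of the sum in WT and 10.1% and 7.64% in Prx-cKO, the deleted libraries being the lower.

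Of the antagonists, Grem1 measured 23.6 and 23.5 CPM in the WT libraries against 29.2 and 32.8 in those of Prx-cKO. The deleted libraries both lay above WT, at a mean of 131.6% of it. This is a log2 fold change of 0.40 (SE 0.17, 95% interval -0.04 to 0.83, edgeR adjusted p = 0.502). Nog was low throughout, at 6.71 and 7.57 CPM in WT and 5.74 and 4.13 CPM in Prx-cKO. Both deleted libraries lay below both WT libraries, and Prx-cKO 2 was the lower. The log2 fold change of Nog was -0.55 (SE 0.30, 95% interval -1.31 to 0.21, edgeR adjusted p = 0.574), and leaving out Prx-cKO 1 or Prx-cKO 2 moved it to -0.79 or -0.32. As a share of the ligand sum, Grem1 was 9.01% and 11.1% in WT and 13.0% and 11.1% in Prx-cKO.

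The response genes were close to WT in level. Id1, the most abundant member per length, measured 254.6 and 238.4 CPM in the WT libraries and 242.0 and 261.4 in those of Prx-cKO. The groups overlapped, and the log2 fold change was 0.03 (95% interval -0.33 to 0.40, edgeR adjusted p = 0.955). It was -0.07 when libraries were scaled by size alone, -0.02 without WT 2 and -0.03 without Prx-cKO 2. For Id3 the WT libraries gave 302.1 and 266.8 CPM, and Prx-cKO gave 287.2 and 328.8. These also overlapped, and the log2 fold change was 0.12 (95% interval -0.29 to 0.52, edgeR adjusted p = 0.840).

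Id2 was more spread. WT 1 had 156.7 and WT 2 had 94.5 CPM of Id2, while Prx-cKO 1 had 130.5 and Prx-cKO 2 had 156.2. WT 2 was the low library and the other 3 lay between 130.5 and 156.7 CPM. Id2 had a log2 fold change of 0.19 (95% interval -0.50 to 0.89, edgeR adjusted p = 0.843), and it was -0.13 without WT 2 and 0.56 without WT 1. Smad6, an inhibitory SMAD that BMP signalling switches on and that limits it, measured 35.3 and 37.8 CPM in the WT libraries and 40.1 and 41.7 in those of Prx-cKO. Both deleted libraries lay just above both WT libraries. Smad6 had a log2 fold change of 0.16 (95% interval -0.23 to 0.56, edgeR adjusted p = 0.755). The 4 response genes had log2 fold changes of 0.03 to 0.19, of which that of Id2 was below 0 without WT 2 and that of Id1 kept its sign under 6 of 10 alternatives. Id1, Id2 and Id3 were each higher in WT 1 and Prx-cKO 2, the libraries with high Xist counts, than in the group's other library. Smad6 was not, at 35.3 CPM in WT 1 against 37.8 CPM in WT 2. The share of all genes with this pattern was not counted, and the part of embryo sex in these values was not tested either. None of the 4 intervals, which ran from -0.50 to 0.89 at their widest, reached a change of 2-fold in either direction.

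**Figure D2:**
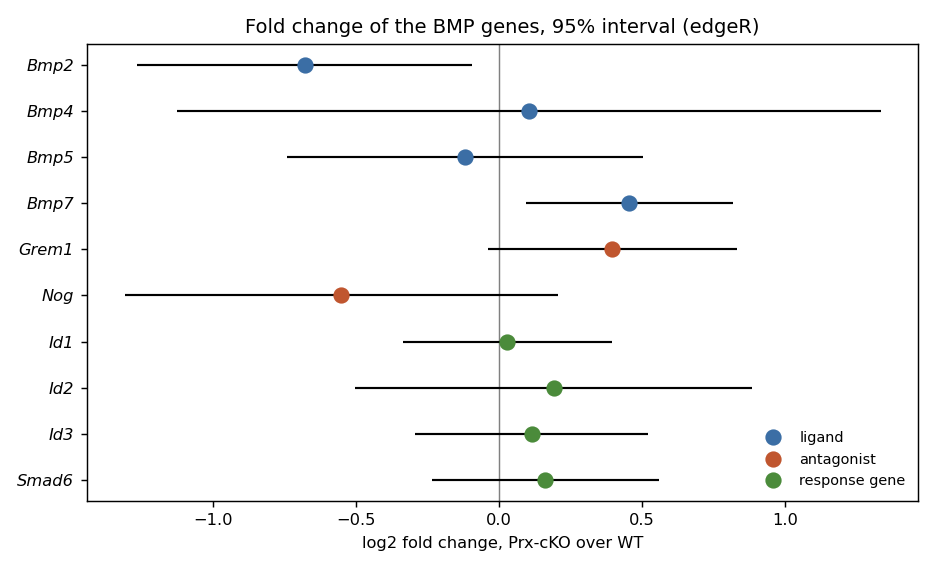
Log2 fold change of each member, Prx-cKO minus WT forelimb, with its 95% interval from the edgeR fit. The intervals of Bmp2 and Bmp7 do not include 0, and that of Bmp4 is the widest.

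The members were set beside 57 other genes of the pathway, of which 55 were tested (Bmp10 and Gdf2 had too few reads). None passed edgeR's adjusted threshold. At an unadjusted p under 0.05, 10 were lower and 1 was higher, against 4.61% and 5.87% of all genes. The number lower was 5 without either Prx-cKO library and 23 without WT 1, and the number higher was 4 without WT 1 and 3 without WT 2. Over the 55 genes 35 log2 fold changes were negative and 20 positive, with a median of -0.19. DESeq2 called 5 of them lower (background 0.961%) and none higher: Gdf5, Chrdl1, Bmper, Smoc2 and Id4.

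Ligands other than the members had a median log2 fold change of -0.07 over the 7 tested. Gdf5, a ligand of forming joints and cartilage, was at 26.2 and 36.8 CPM in WT and 7.41 and 5.56 CPM in Prx-cKO. The groups were far apart, and the deleted mean was 20.6% of WT. The log2 fold change was -2.29 (SE 0.28, edgeR adjusted p = 0.320), and DESeq2 gave an adjusted p of 1.441e-09. Gdf5 is uncertain in the way Bmp5 is, since 936 of its 2320 exonic bases overlap Gm15557 on the other strand. Gdf6 was at 65.8% of WT with groups that did not overlap. Of the 7 ligands, 3 were lower and 0 higher without overlap, against 21.0% and 22.2% of all genes. Gdf7 measured 0.945 and 1.30 CPM in the WT libraries and 0.974 and 3.54 in those of Prx-cKO, with Prx-cKO 2 the high library.

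Secreted antagonists other than Grem1 and Nog had a median log2 fold change of -0.36 over the 15 tested, and 5 were lower at an unadjusted p under 0.05. Chrdl1, a chordin-like binder of ligands, was at 39.4 and 51.0 CPM in WT and 17.7 and 16.5 CPM in Prx-cKO (log2 fold change -1.41, SE 0.20, edgeR adjusted p = 0.332, DESeq2 adjusted p = 1.081e-05). Bmper, which binds ligands outside the cell, was at 10.9 and 10.8 CPM in WT and 4.73 and 2.62 CPM in Prx-cKO (log2 fold change -1.59, edgeR adjusted p = 0.400). Smoc2, a matrix protein, had a mean of 64.4 CPM in WT and 33.5 CPM in Prx-cKO (log2 fold change -0.95, edgeR adjusted p = 0.400). Nbl1 and Smoc1 were at 67.8% and 68.0% of WT. Without overlap of the groups, 8 of the 15 were lower, as Nog was, and 2 were higher, as Grem1 was, against 21.0% and 22.2% of all genes.

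Receptor genes had a median log2 fold change of -0.08 over 11. Eng, the co-receptor endoglin of endothelium, was higher, at 20.7 and 16.0 CPM in WT and 39.6 and 27.1 CPM in Prx-cKO (log2 fold change 0.86, edgeR adjusted p = 0.445, and 0.56 without Prx-cKO 1). Bmpr1b, a type I receptor of condensing cartilage, was at 26.9 and 46.5 CPM in WT and 19.7 and 20.9 CPM in Prx-cKO (log2 fold change -0.86, edgeR adjusted p = 0.460). WT 2 was the high library, and the log2 fold change of Bmpr1b was -1.23 without WT 1 and -0.41 without WT 2. Bmpr1a and Acvr2a were at 79.2% and 75.2% of WT with groups that did not overlap. Of the 11 receptor genes, 5 were lower and 3 higher without overlap, against 21.0% and 22.2% of all genes. The SMAD and SMURF genes had a median of -0.06 over the 7 other than Smad6, and none was under an unadjusted p of 0.05.

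Response genes other than the members had a median log2 fold change of 0.05 over 11, and 2 were lower at an unadjusted p under 0.05. Id4, the relative of Id1 to Id3, measured 11.7 and 11.3 CPM in the WT libraries but 3.20 and 3.13 in those of Prx-cKO. Replicates were tight in both groups, and the log2 fold change was -1.86 (SE 0.25, edgeR adjusted p = 0.332, DESeq2 adjusted p = 3.183e-07). Dlx6, a homeobox gene of the limb, was at 3.28 and 3.05 CPM in WT and 1.57 and 1.47 CPM in Prx-cKO. Tbx3 was at 78.9% of WT, Bambi, also a receptor gene, at 121.2% and Hey1 at 130.5%, all with groups that did not overlap. Of the 11 genes, 4 were lower and 4 higher without overlap, against 21.0% and 22.2% of all genes. The processing proteases had a median of -0.45 over 6, with Pcsk5, which cleaves precursors, at 64.5% of WT and under an unadjusted p of 0.05. The log2 fold change of Gdf5 was -2.55 without WT 1 and -2.02 without WT 2, and that of Chrdl1 was -1.61 and -1.21. That of Id4 ran from -1.89 to -1.85 when each library was left out in turn.

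**Figure D3:**
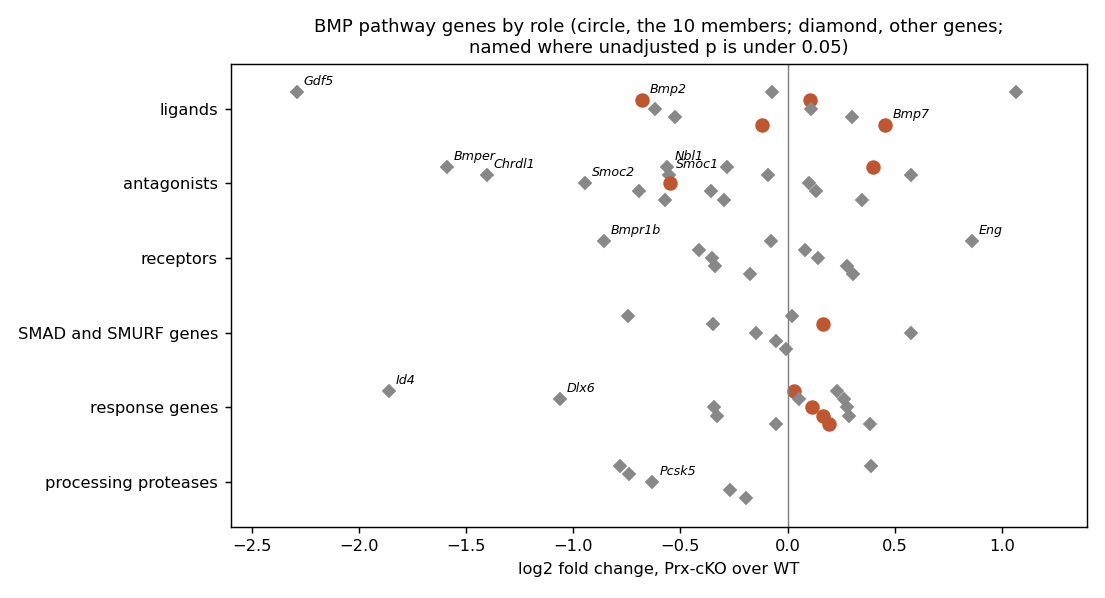
Log2 fold changes, Prx-cKO minus WT forelimb, of the listed BMP pathway genes by role, with the members marked. Circles are the members and diamonds the other genes. With the members left out, the medians are -0.36 for antagonists and -0.45 for proteases, and lie between -0.08 and 0.05 for the other lists.

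The summed levels of most marker lists of forelimb cell types separated between the groups, but that of the erythroid list overlapped. Among single genes, 43.2% of all those tested did not overlap, and no such share was counted for sums. The summed level of 10 chondrogenic genes was 1070 to 1184 CPM in WT and 366.1 to 470.4 CPM in Prx-cKO. Of these, 10 of 10 were lower at an unadjusted p under 0.05, against 4.61% of all genes lower and 5.87% higher. The sum of 10 limb mesenchyme genes was 1930 to 2237 CPM in WT and 1327 to 1364 CPM in Prx-cKO, with 5 of 10 lower. The sum of 10 ectoderm and ridge genes was 744.9 to 902.7 CPM in WT and 906.2 to 965.8 CPM in Prx-cKO, a narrow separation. Of these genes, Fgf8 alone was higher at an unadjusted p under 0.05. The endothelial sum was 201.9 to 214.5 CPM in WT and 273.5 to 280.0 CPM in Prx-cKO, with 4 of 10 higher at an unadjusted p under 0.05. Erg, an endothelial transcription factor, went the other way, at 16.5 and 19.3 CPM in the WT libraries against 9.64 and 8.71 in those of Prx-cKO (edgeR adjusted p = 0.400, DESeq2 adjusted p = 0.01505). It was the 1 endothelial marker of the list that DESeq2 called. The muscle sum was 343.2 to 345.0 CPM in WT and 443.2 to 943.2 CPM in Prx-cKO, with 6 of 10 higher at that p. The myeloid sum was 49.2 to 54.0 CPM in WT and 111.5 to 115.7 CPM in Prx-cKO, with 7 of 10 higher. The nerve and Schwann sum was 126.0 to 128.3 CPM in WT and 137.4 to 172.7 CPM in Prx-cKO, with 2 of 10 higher. The erythroid sum overlapped, at 2673 to 3793 CPM in WT and 2733 to 3500 CPM in Prx-cKO, with 0 of 10 higher or lower at that p. No marker of these lists was at 0 in either group. Gdf5 and Bmpr1b are also genes of condensing cartilage, Bmp7 and Id1 are also expressed outside mesenchyme, and Eng and Id1 in endothelium. The part of these cells in the members' values was not tested.

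In the bone marrow cultures, 6 of 10 members were tested: Bmp2, Grem1, Id1, Id2, Id3 and Smad6. These libraries held 16009146 to 19221865 counts, 14030 genes were tested, and Impdh2 was at 22.3 to 28.2 CPM in the WT and 7.03 to 8.38 CPM in the LysM-cKO libraries. Per the labels' protocols, marrow was grown for 3 days with supernatant equivalent to 20 ng/ml M-CSF and then stimulated with 40 ng/ml of RANKL, the cytokine that drives osteoclast formation. All 8 libraries carry 1 treatment label, so R40D3 and R0D3 are used as names and not as doses. That label may not hold for R0D3, since the titles do not say whether those cultures received RANKL. A sum of 10 osteoclast genes was 325.4 to 471.2 CPM in R0D3 and 13190 to 38760 CPM in R40D3. Bmp7 was at 0 counts in all 8 libraries, which allows up to 3 counts or 0.157 to 0.187 CPM. Bmp4 was at 0 to 4 counts, Bmp5 at 0 to 8 and Nog at 0 to 1.

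Between LysM-cKO and WT cultures no member passed the edgeR test, where 0.0143% of all genes passed at R40D3 and 0.0143% at R0D3. Under R40D3 the WT cultures had 24.0 and 15.1 CPM of Bmp2, against 18.8 and 11.7 in LysM-cKO. The groups overlapped, although the LysM-cKO library was the lower of its number both times, for which no share over all genes was counted. The log2 fold change was -0.36 (SE 0.35, edgeR adjusted p = 0.788). The value ran from -0.72 without LysM-cKO replicate 1 to 0.01 without WT replicate 1. Under R0D3 the WT cultures had 16.5 and 12.6 CPM of Bmp2, against 11.7 and 6.12 in LysM-cKO. Here both LysM-cKO libraries lay below both WT libraries, and the share of all culture genes that separated so was not counted. The log2 fold change was -0.71 (SE 0.38, 95% interval -1.59 to 0.18, edgeR adjusted p = 0.997). Leaving out replicate 1 of LysM-cKO gave -1.25 and leaving out its replicate 2 gave -0.32. With the replicate number as a block, Bmp2 differed by -0.73 at R0D3 (SE 0.15, 95% interval -1.08 to -0.39, edgeR adjusted p = 0.230). At R40D3 the block gave -0.36 for Bmp2 (SE 0.14, 95% interval -0.67 to -0.05, edgeR adjusted p = 0.221). Both intervals lay below 0, but neither value passed the adjusted threshold. Id2 differed by 0.07 at R40D3 (95% interval -0.58 to 0.71) and by 0.09 at R0D3 (95% interval -0.54 to 0.71) on the log2 scale, and both signs turned when some libraries were left out. For none of the 6 did the LysM-cKO effect differ between R40D3 and R0D3 by the edgeR interaction test (adjusted p = 1.00).

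Id2 was lower in R40D3 than in R0D3 in both genotypes. Id2 in WT was at 77.0 and 88.7 CPM in R0D3 and at 38.2 and 46.5 CPM in R40D3, and in LysM-cKO at 66.9 and 109.0 CPM in R0D3 and at 34.7 and 54.2 CPM in R40D3. The titles' groups did not overlap in either genotype, and the share of all genes that separated so was not counted. The log2 fold change was -0.97 in WT (SE 0.27, edgeR adjusted p = 0.0502) and -0.99 in LysM-cKO (SE 0.27, edgeR adjusted p = 0.0648), where 16.9% and 10.1% of all genes passed. With a library left out, Id2 ran from -1.16 to -0.86 in WT, and in LysM-cKO from -1.38 (without R40D3 replicate 2) to -0.59 (without R0D3 replicate 2). Neither passed with all libraries, and both did with the replicate number as a block: Id2 then fell by 0.97 in WT (edgeR adjusted p = 0.000691) and by 0.98 in LysM-cKO (edgeR adjusted p = 0.001035), where 28.3% and 21.3% of all genes passed.

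Bmp2 was higher in R40D3 than in R0D3 in both genotypes in each of the same-numbered pairs, with a log2 fold change of 0.43 in WT (edgeR adjusted p = 0.484) and 0.78 in LysM-cKO (edgeR adjusted p = 0.264). With the replicate number as a block it rose in LysM-cKO (0.79, SE 0.15, edgeR adjusted p = 0.006685) and missed the threshold in WT (0.41, edgeR adjusted p = 0.0563). Without the block, leaving out each library in turn gave 0.02 (without R40D3 replicate 1) to 0.68 (without R40D3 replicate 2) in WT, and 0.39 (without R40D3 replicate 1) to 1.32 (without R0D3 replicate 1) in LysM-cKO. Grem1 was at 19.6 and 26.6 CPM in WT R0D3 and at 16.3 and 16.9 CPM in WT R40D3, and in LysM-cKO at 26.3 and 16.3 CPM in R0D3 and 17.4 and 8.26 CPM in R40D3. It was lower in R40D3 in every same-numbered pair. For neither Grem1 nor Bmp2 was the share of all genes with such agreement over the pairs counted. The log2 fold changes of Grem1 were -0.48 in WT and -0.72 in LysM-cKO (edgeR adjusted p = 0.420 and 0.272). With a library left out the first ran from -0.68 (without R0D3 replicate 1) to -0.24 (without R0D3 replicate 2), and the second from -1.37 (without R40D3 replicate 1) to -0.33 (without R0D3 replicate 1). Id3 ranged from 25.2 to 44.1 CPM, Id1 from 0.846 to 4.85 CPM and Smad6 from 2.43 to 3.57 CPM over the 8 libraries, with groups that overlapped in every comparison.

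**Figure D4:**
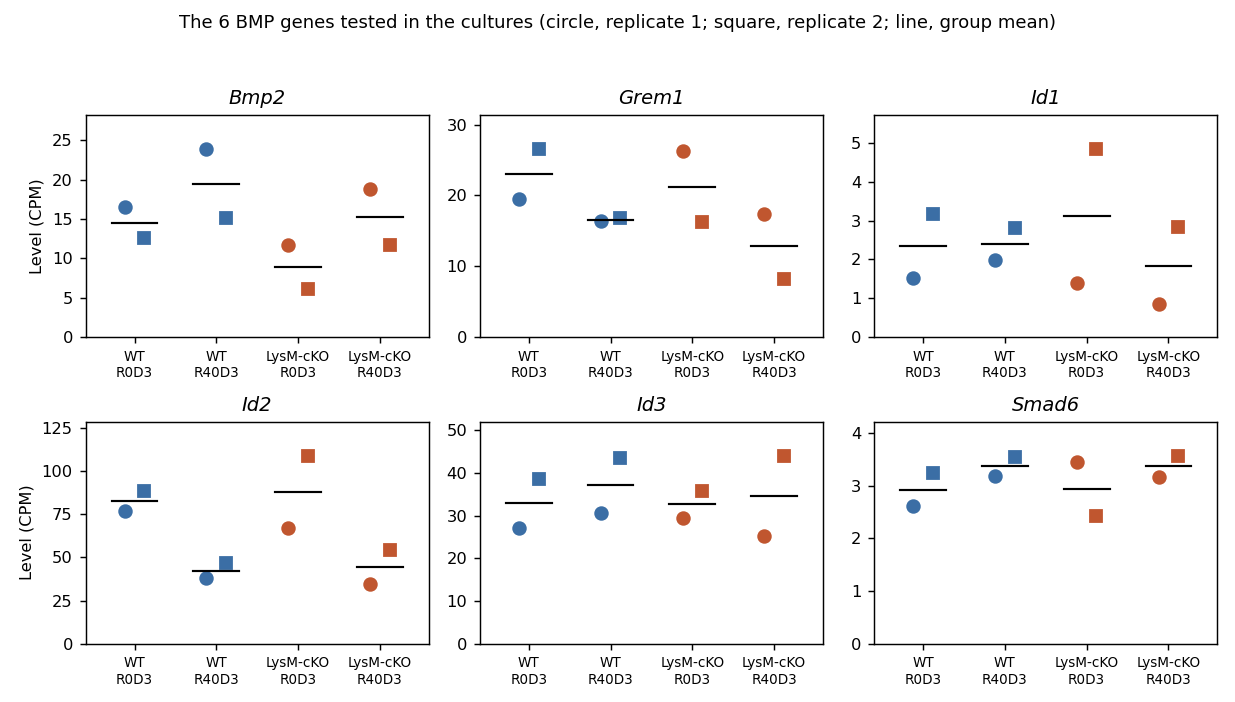
Levels of the 6 members tested in the bone marrow cultures, in CPM on linear axes that start at 0, with each point 1 library (circle, replicate 1; square, replicate 2), the line the group mean, and groups by genotype and title. Id2 is lower in R40D3 than in R0D3 in both genotypes, and the lowest values of Bmp2 and of Grem1 are both in replicate 2 of LysM-cKO.

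In replicate 2 of LysM-cKO, which had the lowest Bmp2 value (in R0D3) and the lowest Grem1 value (in R40D3), a sum of 10 stromal fibroblast genes was at 671.5 CPM in R40D3 and 783.8 CPM in R0D3, against 1689 to 2212 CPM in the other 6 libraries. Its part in the Bmp2 and Grem1 values was not tested. A sum of 10 osteoclast genes was at 26290 and 38760 CPM in WT R40D3 and 13190 and 24830 CPM in LysM-cKO R40D3. It was at 325.4 to 471.2 CPM in the R0D3 libraries. Both LysM-cKO libraries in R40D3 lay below both WT libraries in this sum, and its part in the members' values was not tested.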

How the data were processed

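The authors deposited raw gene-level counts with Ensembl identifiers: the 4 forelimb libraries share a table, and each replicate number of the cultures has its own. RNA was extracted with TRIzol and mRNA libraries were made, per the labels' protocols. FastQC 0.11.2, Trimmomatic 0.36, HISAT2 2.1.0, DESeq2 1.12.4 and the build GRCm38 are named in the submitters' processing notes. The sources used here do not give the counting tool, the gene annotation or whether strand was used.

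The deposited counts entered the test directly. Low genes were removed with filterByExpr in edgeR 4.0.16 (R 4.3.3), libraries were scaled by TMM, and the quasi-likelihood test (legacy = FALSE) was two-sided with Benjamini-Hochberg adjustment over all genes tested. One fit held the 4 forelimb libraries and another the 8 culture libraries. CPM values use the scaled library sizes, and CPM per kb divides them by exonic length (GENCODE M21). DESeq2 1.42.0 was an alternative. A standard error is the size of the log2 fold change over the root of the F statistic. The limit of 3 counts for a gene at 0 covers counting error only. The fits were tested on simulated data.

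Samples were grouped by title. Same-numbered culture samples deviated together in all 6 pairs of groups (r = 0.288 to 0.611) and each replicate number was deposited as a table of its own, so the number was taken to pair them and values with it as a block stand beside any call they alter. The 10 members and the pathway and marker lists were chosen with earlier results of these data known. All 10 members are named whatever their values, and of each pathway list up to 5 other genes with the smallest unadjusted p (Bambi stands in 2 lists). The hindlimb, stromal and osteoclast lists were added later.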

Additional observations from a re-analysis of the deposited data

How the results depend on the processing

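No forelimb member passed under any of the 10 alternatives run (another scaling, no filter, legacy = TRUE, DESeq2, a replicate block, each library left out). The number of all genes passing was 0 with edgeR, 393 with DESeq2 and 0 to 479 when each library was left out, with 479 without WT 1 and 155 without WT 2. Members at an unadjusted p under 0.05 numbered 2, 1 with library size alone, and 0 to 2 with a library left out. Their median log2 fold change was 0.11 and ran from -0.074 without WT 2 to 0.20 without Prx-cKO 1. The sign held under 10 of 10 alternatives for Bmp2, Bmp7, Grem1, Nog, Id3 and Smad6, under 9 for Bmp5 and Id2, 7 for Bmp4 and 6 for Id1. Adjusted p over the alternatives ran from 0.055 to 1.00 for Bmp2 and from 0.250 to 1.00 for Bmp7.

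With the replicate block in the forelimb, where samples share only a number (r = 0.307), 0 genes and 0 members passed, and the median over the members was 0.08. Of the other pathway genes, an alternative chosen after seeing the data, 1 was higher and 10 lower at an unadjusted p under 0.05, and 1 to 4 and 5 to 23 when a library was left out.

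In the WT cultures the number of members differing between R40D3 and R0D3 was 0, and 1 with DESeq2 size factors in edgeR, with library size alone, with DESeq2, with the replicate block and with the 4 compared libraries alone, each time Id2. In LysM-cKO it was 0, 1 with DESeq2, 2 with the replicate block (Id2 and Bmp2), and 0 to 1 with a library left out, Id2 passing without replicate 1 of LysM-cKO R0D3. The causes were not tested. The replicate block changed no other member's call. Among the members tested, counts per library were lowest for Nog in the forelimb (165 to 543) and for Id1 (16 to 80) and Smad6 (40 to 61) in the cultures, where Bmp4, Bmp5, Bmp7 and Nog had 0 to 8 counts and were not tested.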

Other observations

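Fgf8, the signal of the apical ectodermal ridge that Grem1 is known to help maintain, measured 14.1 and 13.1 CPM in the WT forelimbs and 23.8 and 26.6 in those of Prx-cKO. Both deleted libraries lay above both WT libraries (log2 fold change 0.89, SE 0.19, edgeR adjusted p = 0.386). Hoxd13, a distal limb gene, measured 290.8 and 401.2 CPM in the WT libraries and 144.5 and 133.7 in those of Prx-cKO (edgeR adjusted p = 0.332). Sox9, the factor of cartilage condensation, measured 109.3 and 135.5 CPM in the WT libraries and 49.6 and 42.9 in those of Prx-cKO. Its target Col2a1 measured 489.3 and 506.5 CPM, against 213.6 and 166.3. For Sox9 edgeR gave an adjusted p of 0.320 and DESeq2 one of 7.148e-07. These genes were picked after their values were seen.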
